A study of Mus musculus with 17 samples.

Results

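Lung gene expression in NOS2-/- mice was compared between 22 h and 7 h after an intravenous challenge with lipopolysaccharide (LPS), the outer-membrane endotoxin of Gram-negative bacteria. The comparison took the 3 arrays labelled NOS2-/-, LPS, 22 h and the 3 labelled NOS2-/-, LPS, 7 h, which are 6 of the 17 arrays of the series, and every one of the 22626 probe sets that is not a manufacturer's control. Of these probe sets, 20380 named a single gene, and they stood for 12393 genes. All 6 animals were male mice lacking NOS2, the inducible nitric oxide synthase, bought from The Jackson Laboratory. They received Escherichia coli O111:B4 LPS at 20 mg/kg dissolved in saline. The strain is labelled only for the wild-type mice, as C57BL/6J, and no source used here gives the ages. The other 11 arrays were from wild-type mice, 3 at 7 h of LPS, 3 at 22 h of LPS and 4 at 22 h of saline, and from a single NOS2-/- mouse at 22 h of saline. Each array held the RNA of a whole-lung sample from 1 mouse. NOS2-/- lungs therefore have a control of 1 mouse at 22 h and none at 7 h. No source used here gives the hour of day at which mice were challenged or killed, so time since LPS and time of day cannot be told apart.

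Endotoxin is sensed by Toll-like receptor 4, which switches on inflammatory cytokines and chemokines through NF-kB and, through another adaptor, type I interferons. Interferon-gamma from natural killer and T cells then adds a further layer of interferon-stimulated genes. In the lung, circulating neutrophils collect in the capillaries while endothelial cells lose part of their resting, anticoagulant programme, and NOS2 is a classical late product of this response, releasing nitric oxide that can modify other proteins and feed back on transcription.

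The deposited values were log2 signals, so that a difference of 1 is a 2-fold difference. Changes are given as 22 h minus 7 h on this scale with the standard error (SE) of the limma fit, and a change was called where its adjusted p was under 0.05. The change from 7 h to 22 h was modest for most genes. Of the 22626 probe sets, 1051 (4.65%) were higher and 715 (3.16%) were lower at 22 h. Counted by gene, with the brightest probe set standing for each, 564 of 12393 (4.55%) rose and 480 (3.87%) fell. These shares are the background for every list count below. The median called gene changed 1.38-fold in either direction, and only 25 rising and 20 falling genes changed at least 2-fold. In 1040 of the 1044 called genes the 3 signals at 22 h lay wholly above or below the 3 at 7 h. The calls rest on the same signals, so this separation is no separate support for them, and its share over all genes was not counted. The median change over all genes was -0.035. Arrays of 1 group correlated across probe sets at 0.998 among the 22 h mice and at 0.994 to 0.996 among the 7 h mice. The difference between the 3′ and 5′ control probe sets for Gapdh, a sign of RNA integrity, was 0.23 to 0.27 at 7 h and 0.082 to 0.25 at 22 h. One wild-type array, 22 h LPS mouse 2, correlated with its 2 fellows at only 0.955 and 0.949, and it widened the spread that all groups share in the fit. Without it 1451 genes (11.7%) rose and 1183 (9.55%) fell, among them all 1044 genes called with it. Nothing in the labels ties any of the 6 mice to another, and the p-values measure the spread among single lungs.

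The deleted gene was measured first. Nos2 gave a signal of 8.97, 8.999 and 8.85 in the 7 h mice and 9.20, 9.25 and 8.99 in the 22 h mice. All 6 lay above the wild-type saline mean of 8.17. In wild-type mice it read 8.93, 8.995 and 9.06 at 7 h and 8.80, 8.19 and 8.48 at 22 h. No source used here says where the probe set lies relative to the deleted part of the gene, so the signal checks neither the genotype nor the labels. Its change with time in NOS2-/- mice was 0.21 ± 0.16, adjusted p = 0.578. Nos3, the endothelial synthase, read 8.37, 8.56 and 8.39 in the 7 h mice and 8.85, 8.68 and 8.76 in the 22 h mice, a change of 0.32 ± 0.16, adjusted p = 0.286. The wild-type change was 1.32, adjusted p = 7.92e-05, and the difference between the genotypes passed the test at -0.99 ± 0.22, adjusted p = 0.0267. Leaving out 1 array raised adjusted p of the difference above 0.05 for Nos3 (any of 7 arrays, up to 0.076 without wild-type 7 h mouse 3).

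**Figure D1:**
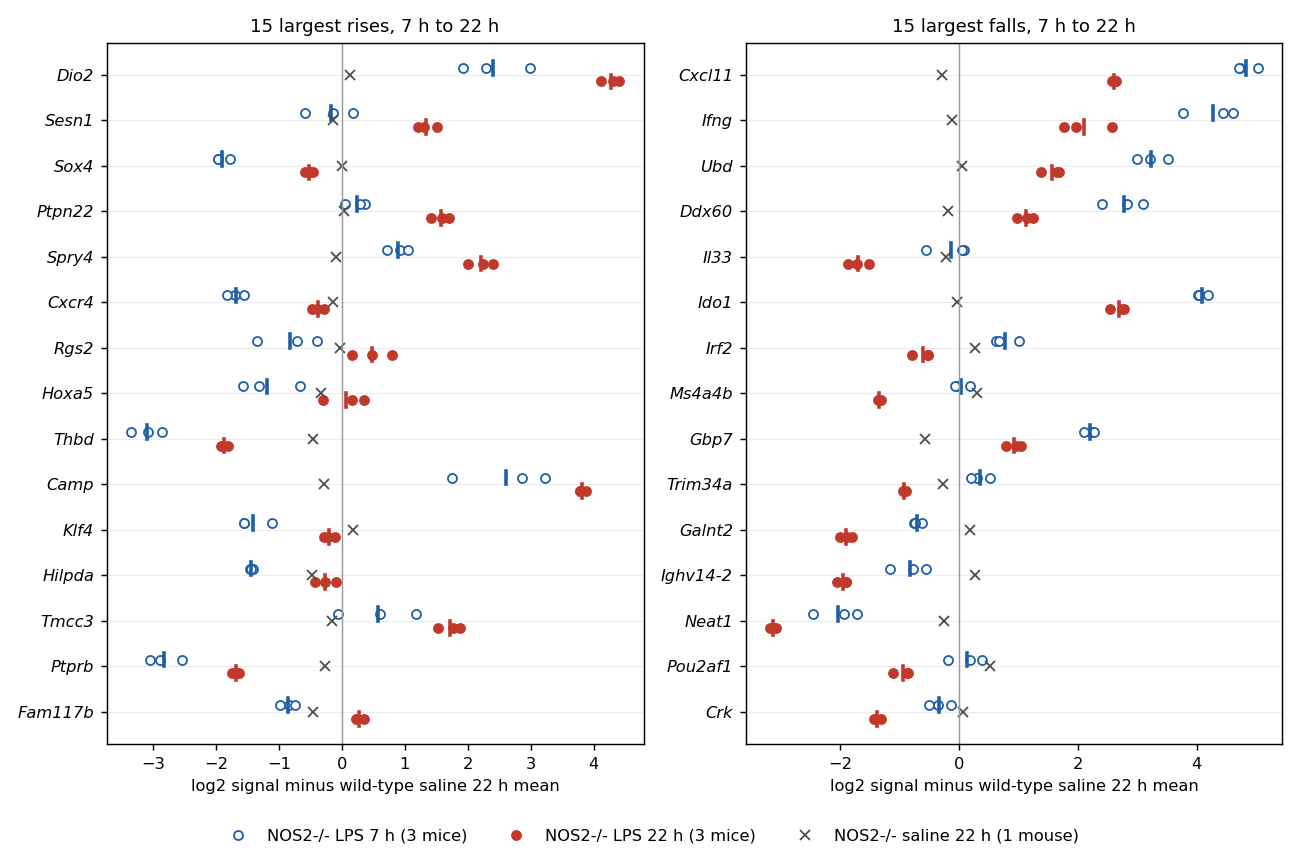
The 15 genes with the largest rise (left) and the 15 with the largest fall (right) in NOS2-/- lungs among called genes whose 3 and 3 mice did not overlap. Each point is 1 mouse, short vertical bars are group means, crosses are the single NOS2-/- saline mouse, and the x axis is log2 signal minus the mean of 4 wild-type saline mice. Cxcl11 and Ifng fell most and stayed above the saline level, while Dio2 rose most from a level already above it.

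The 3 largest falls of any gene were in the interferon-gamma axis. Cxcl11, a ligand of the lymphocyte chemokine receptor CXCR3, read 11.81, 11.80 and 12.12 in the 7 h mice and 9.73, 9.71 and 9.66 in the 22 h mice. Ifng, the cytokine itself, read 9.76, 10.60 and 10.44 in the 7 h mice and 8.57, 7.77 and 7.96 in the 22 h mice. These were changes of -2.21 ± 0.15, adjusted p = 3.84e-06 (4.62-fold) for Cxcl11 and of -2.16 ± 0.32, adjusted p = 0.000826 (4.48-fold) for Ifng, with no overlap between the times. Ubd, an interferon-inducible ubiquitin-like modifier, read 11.19, 10.89 and 10.67 in the 7 h mice and 9.32, 9.06 and 9.35 in the 22 h mice, and Ido1, which degrades tryptophan, read 11.75, 11.75 and 11.90 in the 7 h mice and 10.26, 10.49 and 10.47 in the 22 h mice. Their changes were -1.67 ± 0.18, adjusted p = 0.000108 and -1.40 ± 0.15, adjusted p = 0.000106. Gbp7, a guanylate-binding protein of cell-autonomous defence, read 12.40, 12.28 and 12.45 in the 7 h mice and 11.21, 10.97 and 11.13 in the 22 h mice, a change of -1.27 ± 0.20, adjusted p = 0.00146. In all 5 genes every mouse at 22 h was below every mouse at 7 h, as the ranking of the largest falls required. None had returned to the saline level: Cxcl11 stood 2.61 above the wild-type saline mean at 22 h after 4.82 at 7 h, Ifng 2.11 after 4.27, and Ido1 2.69 after 4.08. Of the 24 measured members of the axis these 5 fell and 0 rose, and the median change was -0.172. The other CXCR3 ligands stood apart from Cxcl11. Cxcl10 read 13.55, 13.51 and 13.74 in the 7 h mice and 13.52, 13.49 and 13.50 in the 22 h mice, overlapping between the times, with a change of -0.10 ± 0.14, adjusted p = 0.809. Cxcl9 read 13.05, 13.42 and 13.22 in the 7 h mice and 13.13, 13.03 and 13.06 in the 22 h mice, with a change of -0.16 ± 0.18, adjusted p = 0.746. None of these calls ended with 1 array left out.

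Of 29 measured antiviral genes that respond to type I interferon 9 fell and 0 rose, with a median change of -0.296, and the list's median height above wild-type saline went from 2.18 at 7 h to 1.92 at 22 h. Usp18, which strips ISG15 from proteins and restrains the interferon receptor, read 12.31, 12.79 and 12.88 in the 7 h mice and 12.05, 11.72 and 11.73 in the 22 h mice. Oasl2, an oligoadenylate synthetase-like protein, read 12.07, 12.28 and 12.33 in the 7 h mice and 11.40, 11.41 and 11.45 in the 22 h mice. Their changes were -0.82 ± 0.18, adjusted p = 0.00974 and -0.81 ± 0.11, adjusted p = 0.000704. Trim30a (-0.76), the double-stranded RNA sensor gene Ifih1 (-0.70), the RNA-dependent kinase gene Eif2ak2 (-0.61), Ifi35 (-0.56), Dhx58 (-0.56), Isg20 (-0.51) and Tor3a (-0.42) were the other members called lower. Ddx60, an antiviral helicase outside the list, had the fourth largest fall. It read 9.29, 9.72 and 9.996 in the 7 h mice and 8.13, 7.87 and 8.04 in the 22 h mice, a change of -1.65 ± 0.19, adjusted p = 0.000195. Irf2, a transcription factor that competes with IRF1 for interferon response elements, read 8.998, 9.05 and 9.38 in the 7 h mice and 7.85, 7.85 and 7.58 in the 22 h mice and changed by -1.38 ± 0.15, adjusted p = 0.000107. Trim34a, an interferon-inducible member of the TRIM family, read 10.35, 10.25 and 10.57 in the 7 h mice and 9.15, 9.09 and 9.12 in the 22 h mice, a change of -1.27 ± 0.17, adjusted p = 0.000552, while its other probe set gave -0.16 and was not called. Other members did not pass: the values were -0.19 ± 0.13 for Ifit1, -0.05 ± 0.12 for Rsad2, which encodes viperin, and -0.01 ± 0.19 for Irf7, the amplifier of interferon production. Adjusted p exceeded 0.05 with 1 array left out for Usp18 (0.0597 without NOS2-/- 7 h mouse 3), Ifih1 (0.0509 without NOS2-/- 7 h mouse 3), Dhx58 (any of 5 arrays, up to 0.171 without NOS2-/- 7 h mouse 3), Isg20 (any of 4 arrays, up to 0.0836 without NOS2-/- 7 h mouse 3) and Tor3a (any of 5 arrays, up to 0.114 without NOS2-/- 7 h mouse 2).

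Promoter windows from RefSeq (GRCm38.p6, 250 bases before to 50 after an annotated start) were matched by symbol for 9887 of the 12393 genes. They are shown for Ddx60 and Gbp7 because both are among the largest falls and carry the letters of an interferon-stimulated response element, searched as GAAANNGAA on both strands. Capitals mark each match, and none overlaps another motif searched. The Ddx60 window lies at chr8:61927837-61928136 on the + strand with 2 matches, and the Gbp7 window at chr3:142530086-142530385 on the + strand with 1.
Ddx60: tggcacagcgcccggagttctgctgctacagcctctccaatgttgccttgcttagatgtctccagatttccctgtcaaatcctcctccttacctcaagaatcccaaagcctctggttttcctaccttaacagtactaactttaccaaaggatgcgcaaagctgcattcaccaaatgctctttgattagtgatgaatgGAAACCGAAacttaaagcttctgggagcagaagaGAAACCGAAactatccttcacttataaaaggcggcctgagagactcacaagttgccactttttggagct
Gbp7: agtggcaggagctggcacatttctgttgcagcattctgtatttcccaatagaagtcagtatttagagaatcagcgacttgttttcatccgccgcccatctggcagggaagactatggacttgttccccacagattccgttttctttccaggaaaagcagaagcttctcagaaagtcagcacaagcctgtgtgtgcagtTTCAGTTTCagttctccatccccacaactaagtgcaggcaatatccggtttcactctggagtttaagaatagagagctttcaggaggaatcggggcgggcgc
The letters stood in 11 of 20 windows of the type I interferon list and in 10 of 18 of the interferon-gamma axis, against 8.63% of all measured genes with a window. Among genes called lower they stood in 15.3% (58 of 380), and among genes called higher in 7.1% (32 of 451). A match of letters is a description of the window and does not show that a factor binds there.

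The time course of these genes differed between genotypes, by the test of the difference itself. The NOS2-/- and wild-type changes share no array. Over all genes, 336 (2.71%) had a change more positive and 87 (0.702%) a change more negative in NOS2-/- than in wild-type mice. In the type I interferon list 11 of 29 were more positive in NOS2-/- and 0 more negative, and in the interferon-gamma axis 8 of 24 and 0. The list medians were -1.06 in wild-type and -0.296 in NOS2-/- for the first, and -0.839 and -0.172 for the second. Without wild-type 22 h mouse 2 the wild-type medians were smaller in size, at -0.961 and -0.624. Cxcl10 had the largest difference of the interferon-gamma axis. Wild-type lungs read 13.58, 13.67 and 13.65 at 7 h and 11.37, 10.81 and 11.37 at 22 h, a change of -2.45, adjusted p = 8.69e-08, against -0.10 in NOS2-/- lungs. The difference of the changes was 2.35 ± 0.20, adjusted p = 3.97e-05. Cxcl11 fell in both genotypes, with a wild-type change of -3.77, adjusted p = 4.03e-09, and the difference was 1.56 ± 0.21, adjusted p = 0.00152. For Ifit1 the difference was 1.35 ± 0.19, adjusted p = 0.00159, for Isg20 1.11 ± 0.17, adjusted p = 0.00262, for Ido1 1.02 ± 0.21, adjusted p = 0.0175, for Rsad2 0.96 ± 0.18, adjusted p = 0.00961 and for Tor3a 0.64 ± 0.15, adjusted p = 0.0331. Irf2 ran the other way, falling more in NOS2-/- mice (-0.94 ± 0.21, adjusted p = 0.0239). Ifng did not pass this test (1.11 ± 0.45, adjusted p = 0.202), nor did Ubd (0.90 ± 0.25, adjusted p = 0.066). Of the 49 differences between genotypes given here and below, all 49 were also called without wild-type 22 h mouse 2. That is a weak check, because leaving it out narrows the shared spread and raised the number of calls. With 1 array left out, the call of the difference was lost for Ido1 (any of 3 arrays, up to 0.0531 without wild-type 7 h mouse 2), Tor3a (any of 7 arrays, up to 0.101 without wild-type 7 h mouse 3) and Irf2 (any of 6 arrays, up to 0.07 without NOS2-/- 22 h mouse 3).

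**Figure D2:**
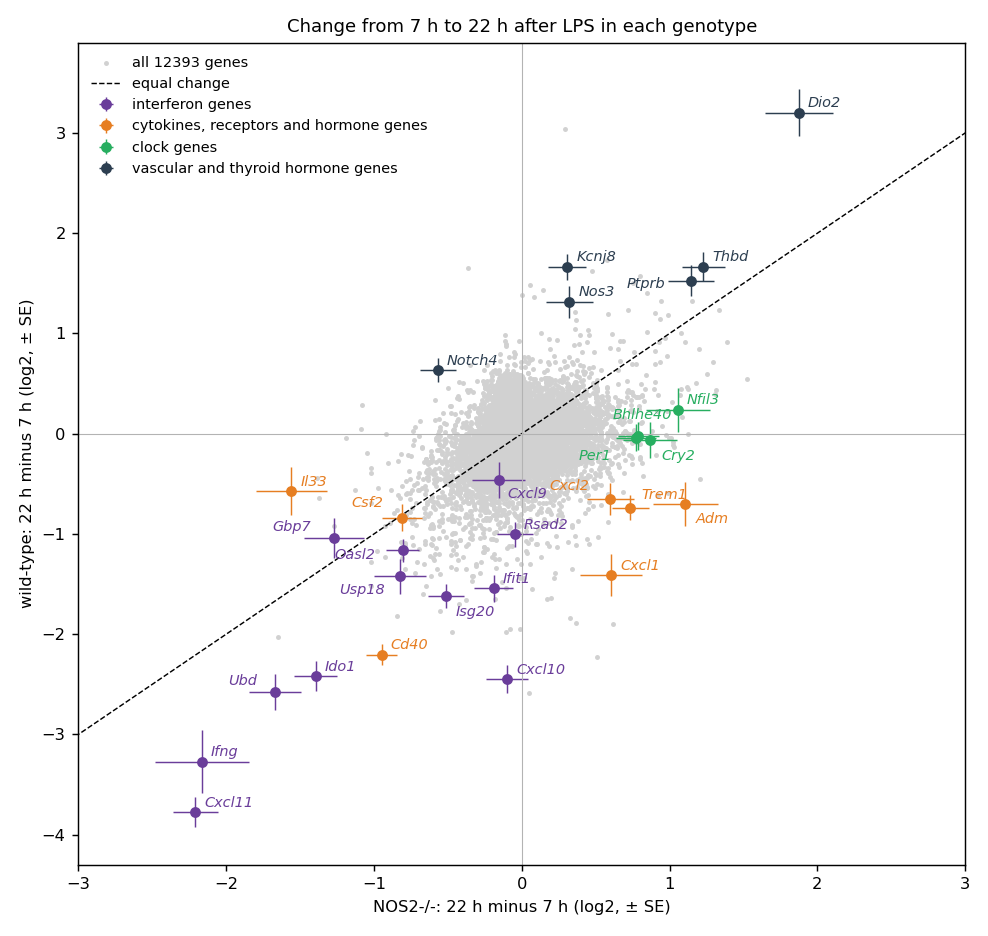
Change from 7 h to 22 h in NOS2-/- lungs (x axis) against wild-type lungs (y axis), in log2 units, for all genes (grey) and for named genes (coloured, with SE bars in both directions); the dashed line marks equal change. Cxcl10, Ifit1 and Rsad2 lie near 0 on the NOS2-/- axis and at -2.45, -1.54 and -1.002 on the wild-type axis, and Cxcl1, Cxcl2, Trem1 and Adm lie above 0 in NOS2-/- and below 0 in wild-type. Of these changes, that of Cxcl1 in NOS2-/- and that of Adm in wild-type were not called. The NOS2-/- rise of Cxcl2 lost its call with some single arrays left out.

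Early cytokines and chemokines split. Of 31 measured, 1 rose and 5 fell, against 4.55% and 3.87% of all genes. Il33, an alarmin released by damaged epithelium and endothelium, read 9.99, 9.34 and 9.96 in the 7 h mice and 8.18, 8.04 and 8.39 in the 22 h mice, a change of -1.56 ± 0.24, adjusted p = 0.00119. At 22 h it lay below the wild-type saline mean of 9.90, unlike the interferon genes. Csf2, which encodes GM-CSF, read 9.66, 9.41 and 9.52 in the 7 h mice and 8.54, 8.86 and 8.75 in the 22 h mice and changed by -0.81 ± 0.14, adjusted p = 0.00204. Cxcl5, a neutrophil attractant, changed by -0.98 ± 0.24, adjusted p = 0.0222, Ccl4, a chemokine that draws monocytes, by -0.85 ± 0.20, adjusted p = 0.0155, and Cx3cl1, the endothelial fractalkine, by -0.48 ± 0.12, adjusted p = 0.018. The other probe sets of Cx3cl1 gave -0.37 and 0.08 and were not called. Cxcl2, another neutrophil attractant acting on CXCR2, was the member that rose. It read 12.15, 11.95 and 12.11 in the 7 h mice and 12.92, 12.53 and 12.56 in the 22 h mice, a change of 0.60 ± 0.16, adjusted p = 0.0301. Cxcl1, its close relative, read 11.96, 12.43 and 11.97 in the 7 h mice and 13.14, 12.60 and 12.45 in the 22 h mice, a difference between the times of 0.61 ± 0.21, adjusted p = 0.101 that did not pass. Il6 read 9.95, 11.09 and 9.69 in the 7 h mice and 12.12, 11.22 and 10.77 in the 22 h mice, with mouse 1 highest of the 22 h group, and its change of 1.13 ± 0.38 did not pass either (adjusted p = 0.0919). Tnf read 9.39, 9.42 and 9.44 in the 7 h mice and 9.38, 9.24 and 9.30 in the 22 h mice, and it did not pass (adjusted p = 0.777). The wild-type changes were -1.41, adjusted p = 0.000454 for Cxcl1 and -0.65, adjusted p = 0.0144 for Cxcl2, and the differences between genotypes were 2.02 ± 0.30, adjusted p = 0.00213 for Cxcl1 and 1.25 ± 0.22, adjusted p = 0.00809 for Cxcl2. In all, 12 of the 31 had a more positive change in NOS2-/- mice and 0 a more negative one. Among NF-kB subunits and feedback genes 1 of 21 rose and 1 fell, close to the shares over all genes (4.55% and 3.87%). The first was Rel (0.38), a subunit of NF-kB, and the second was Cd40, a costimulatory receptor, at 10.75, 10.89 and 10.86 in the 7 h mice and 9.90, 9.89 and 9.86 in the 22 h mice, a change of -0.95 ± 0.10, adjusted p = 0.000144. Cd40 fell by more in wild-type mice (-2.20, adjusted p = 2.1e-08), a difference of 1.26 ± 0.15, adjusted p = 0.000565, and 10 of the 21 had a more positive change in NOS2-/- mice. The call ended with 1 array left out for Cxcl5 (any of 4 arrays, up to 0.124 without NOS2-/- 7 h mouse 3), Ccl4 (any of 3 arrays, up to 0.0876 without NOS2-/- 7 h mouse 3), Cx3cl1 (any of 3 arrays, up to 0.0946 without NOS2-/- 22 h mouse 3), Cxcl2 (any of 6 arrays, up to 0.15 without NOS2-/- 22 h mouse 1) and Rel (0.0504 without NOS2-/- 22 h mouse 1).

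Adm, which encodes the vasodilator and barrier peptide adrenomedullin, read 10.16, 11.17 and 10.29 in the 7 h mice and 11.59, 11.69 and 11.67 in the 22 h mice. It rose by 1.11 ± 0.22, adjusted p = 0.0063, and 7 h mouse 2 stood closest to the 22 h group. In wild-type lungs it read 9.42, 9.60 and 9.84 at 7 h and 9.03, 8.50 and 9.23 at 22 h. The wild-type change did not pass (-0.70, adjusted p = 0.0553), and the genotypes differed in it by 1.80 ± 0.31, adjusted p = 0.00628. Of 34 measured vasoactive mediators and receptors, 3 rose and 1 fell, against 4.55% and 3.87% of all genes. Besides Adm these were Alox5ap, which presents arachidonate to 5-lipoxygenase (0.93 ± 0.12, adjusted p = 0.000375), Ramp1, a receptor subunit for calcitonin gene-related peptide (0.54 ± 0.13, adjusted p = 0.0206), and Ptges, a prostaglandin E synthase (-0.43 ± 0.11, adjusted p = 0.0227). Without 1 array, the call no longer passed for Ramp1 (any of 5 arrays, up to 0.09 without NOS2-/- 7 h mouse 1) and Ptges (any of 5 arrays, up to 0.106 without NOS2-/- 22 h mouse 3).

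Of 24 measured neutrophil genes 9 rose and 0 fell, against 4.55% and 3.87% of all genes, and the median change was 0.372. In whole lung, more or fewer cells of a type and more or less RNA per cell cannot be told apart. The mean signal over the list was 10.85 to 11.07 in the 7 h mice and 11.34 to 11.38 in the 22 h mice, with 8.92 to 9.09 in wild-type saline lungs. Camp, the cathelicidin of specific granules, read 9.88, 11.37 and 11.001 in the 7 h mice and 11.93, 11.93 and 12.02 in the 22 h mice, and Ngp, another granule protein, read 12.44, 13.19 and 13.003 in the 7 h mice and 13.75, 13.79 and 13.79 in the 22 h mice. The 22 h mice lay within 0.1 of each other, and the 7 h mice were spread, with mouse 1 lowest. Their changes were 1.21 ± 0.35, adjusted p = 0.0463 for Camp and 0.90 ± 0.15, adjusted p = 0.00235 for Ngp, and that of Camp was 0.78 without 7 h mouse 1. Mmp9, the gelatinase of tertiary granules, read 9.02, 8.97 and 9.12 in the 7 h mice and 9.72, 9.91 and 10.03 in the 22 h mice and changed by 0.85 ± 0.13, adjusted p = 0.00121. Trem1, an activating receptor of neutrophils and monocytes, read 9.55, 9.61 and 9.45 in the 7 h mice and 10.28, 10.21 and 10.31 in the 22 h mice, a change of 0.73 ± 0.13, adjusted p = 0.00231. It fell in wild-type mice (-0.74, adjusted p = 0.00129), and the difference was 1.47 ± 0.18, adjusted p = 0.000606. Pglyrp1 (0.67), Cd177 (0.65), the interleukin-1 decoy receptor gene Il1r2 (0.54), the collagenase gene Mmp8 (0.48) and Clec4d (0.42) were also higher. S100a8, a subunit of calprotectin, read 13.64, 13.79 and 13.83 in the 7 h mice and 14.03, 13.97 and 14.09 in the 22 h mice, a difference of 0.28 ± 0.14 that did not pass (adjusted p = 0.319). The value for lactoferrin, Ltf, was 0.66 ± 0.22, adjusted p = 0.0888. Of 18 monocyte and macrophage genes 1 rose and 1 fell, against the same 4.55% and 3.87% of all genes. Dropping a single array took adjusted p past 0.05 for Camp (any of 11 arrays, up to 0.181 without NOS2-/- 7 h mouse 1), Cd177 (any of 4 arrays, up to 0.0805 without NOS2-/- 7 h mouse 3), Il1r2 (0.0742 without NOS2-/- 7 h mouse 3, 0.0718 without NOS2-/- 22 h mouse 1), Mmp8 (any of 5 arrays, up to 0.0827 without NOS2-/- 7 h mouse 3) and Clec4d (any of 8 arrays, up to 0.184 without NOS2-/- 22 h mouse 1).

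**Figure D3:**
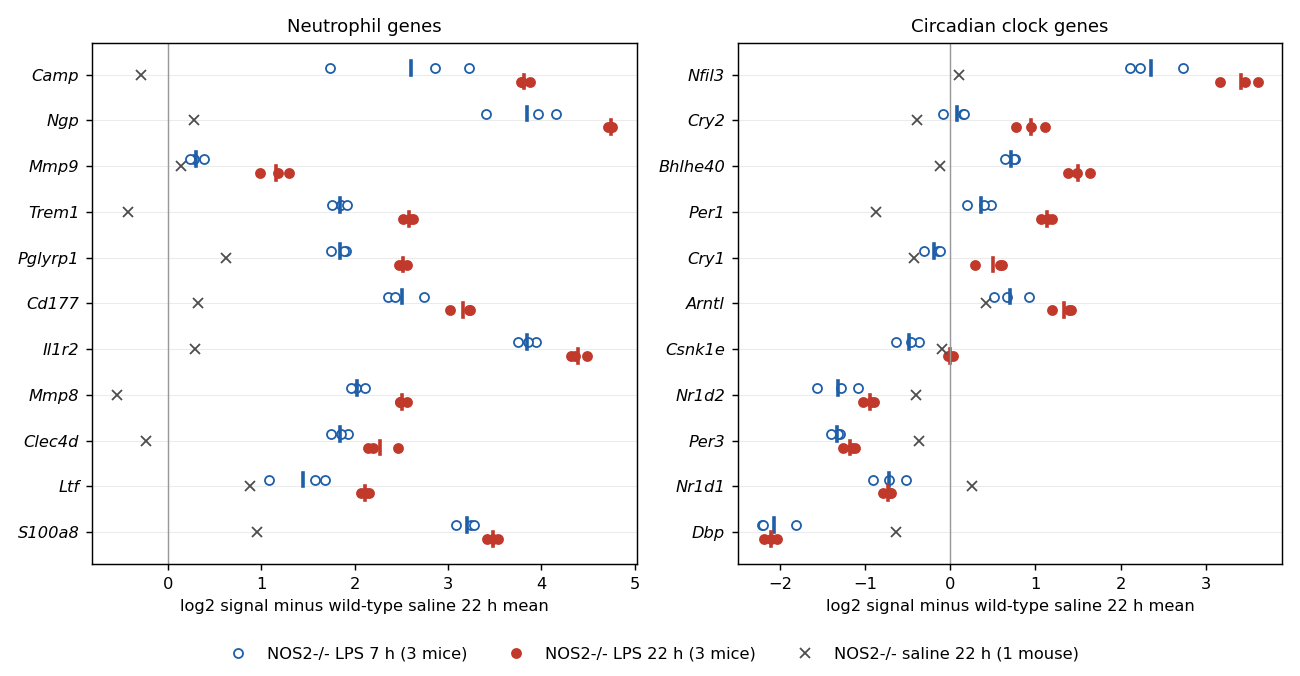
Neutrophil genes (left) and circadian clock genes (right) in the 6 NOS2-/- lungs, as log2 signal minus the mean of 4 wild-type saline mice (x axis); points are single mice, short bars are group means and crosses the NOS2-/- saline mouse. The 9 upper neutrophil genes and the 7 upper clock genes were called higher at 22 h.

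Of 19 measured genes of the circadian clock 7 rose and 0 fell, with a median change of 0.313. The repressor genes of the core loop were among them: Per1 read 11.61, 11.53 and 11.34 in the 7 h mice and 12.33, 12.28 and 12.20 in the 22 h mice, Cry1 read 7.18, 7.35 and 7.37 in the 7 h mice and 7.79, 8.10 and 8.08 in the 22 h mice, and Cry2 read 9.91, 9.92 and 9.68 in the 7 h mice and 10.87, 10.71 and 10.53 in the 22 h mice. The changes were 0.78 ± 0.14, adjusted p = 0.0026 for Per1, 0.69 ± 0.12, adjusted p = 0.0022 for Cry1 and 0.87 ± 0.18, adjusted p = 0.00836 for Cry2. Bhlhe40, a repressor of the same E-box-bound activators, read 11.02, 11.01 and 10.90 in the 7 h mice and 11.91, 11.64 and 11.74 in the 22 h mice and changed by 0.79 ± 0.14, adjusted p = 0.00283. Nfil3, which represses through D-box elements, read 9.84, 10.34 and 9.72 in the 7 h mice and 11.21, 11.07 and 10.77 in the 22 h mice, a change of 1.05 ± 0.22, adjusted p = 0.00757. Arntl, which encodes the activator BMAL1, also rose (0.63 ± 0.11, adjusted p = 0.00309), as did the PER kinase gene Csnk1e (0.49 ± 0.11, adjusted p = 0.0108). The output genes Dbp and Nr1d1 did not pass, with values of -0.04 ± 0.19 and -0.02 ± 0.23, and Dbp stood -2.07 from its saline mean at 7 h and -2.11 at 22 h. For Per2 the probe sets disagreed: the brightest gave 0.37 ± 0.15 and did not pass, while the other gave 1.30 and did. In wild-type mice the values were -0.04 for Per1, -0.02 for Bhlhe40 and -0.07 for Cry2, and none passed. The difference between genotypes passed for Per1 (0.82 ± 0.19, adjusted p = 0.0325) and Bhlhe40 (0.81 ± 0.20, adjusted p = 0.0389), and not for Cry2 (0.93 ± 0.26, adjusted p = 0.0636). Time of day was not given for any mouse, and its part in these changes was not tested. Leaving out 1 array raised adjusted p above 0.05 for Csnk1e (0.0636 without NOS2-/- 7 h mouse 3). Adjusted p of the difference exceeded 0.05 with 1 array left out for Per1 (any of 8 arrays, up to 0.092 without wild-type 7 h mouse 2) and Bhlhe40 (any of 12 arrays, up to 0.111 without NOS2-/- 22 h mouse 1).

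The promoter windows of Per1 and Cry1 are shown because both genes rose and both windows hold an E-box, the CACGTG sequence bound by the clock's activators (capitals, 1 match in each). The Per1 window is 1 of 2 annotated for the gene and lies at chr11:69098699-69098998 on the + strand; that of Cry1 lies at chr10:85185005-85185304 on the - strand.
Per1: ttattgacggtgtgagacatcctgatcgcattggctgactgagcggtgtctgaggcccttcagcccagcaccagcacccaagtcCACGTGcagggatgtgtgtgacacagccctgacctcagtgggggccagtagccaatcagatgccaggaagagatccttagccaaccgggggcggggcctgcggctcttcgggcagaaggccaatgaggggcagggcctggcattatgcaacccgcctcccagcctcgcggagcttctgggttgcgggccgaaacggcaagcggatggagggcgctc
Cry1: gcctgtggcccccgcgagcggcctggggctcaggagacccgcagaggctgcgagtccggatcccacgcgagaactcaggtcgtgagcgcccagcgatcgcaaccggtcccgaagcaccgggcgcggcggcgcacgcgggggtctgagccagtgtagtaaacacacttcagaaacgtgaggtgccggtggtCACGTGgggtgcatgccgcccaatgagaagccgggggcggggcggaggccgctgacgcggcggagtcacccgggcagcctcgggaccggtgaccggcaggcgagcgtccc
An E-box stood in 4 of the 16 clock genes with a window, in 10.8% of all measured genes, in 11.1% of the genes called higher and in 10% of those called lower. A D-box (TTATGTAA or TTACGTAA) stood in 1 of the 16 and in 0.931% of measured genes. The letters CCAAT stood in 12 of the 16, against 42.3% of measured genes, and the cell cycle homology region TTTGAA in 0, against 15.4%.

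Glucocorticoid-responsive genes overlap this group: of 23 measured, 4 rose and 1 fell, against 4.55% and 3.87% of all genes. Per1 and Il1r2 are members of it and were described above. Cdkn1a, the cyclin-dependent kinase inhibitor p21, read 12.96, 12.96 and 12.72 in the 7 h mice and 13.56, 13.49 and 13.49 in the 22 h mice and changed by 0.63 ± 0.11, adjusted p = 0.00227. Ddit4, an inhibitor of mTOR signalling, changed by 0.73 ± 0.21, adjusted p = 0.0444, and Sult1a1, a sulfotransferase, by -0.45 ± 0.11, adjusted p = 0.0193. With 1 array left out, the call was lost for Ddit4 (any of 9 arrays, up to 0.226 without NOS2-/- 7 h mouse 3) and Sult1a1 (any of 5 arrays, up to 0.0854 without NOS2-/- 22 h mouse 2).

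Cdkn1a also belongs to the cyclin-dependent kinase inhibitors and p53 targets, of which 5 of 18 rose and 0 fell, with a median change of 0.235. Sesn1, a stress-induced sestrin, had the second largest rise of any gene. It read 10.30, 10.62 and 9.86 in the 7 h mice and 11.65, 11.75 and 11.94 in the 22 h mice, a change of 1.52 ± 0.21, adjusted p = 0.000651, and its 2 other probe sets gave 2.08 and 1.91. Trp53inp1, a p53-inducible nuclear protein, read 10.27, 10.17 and 9.99 in the 7 h mice and 11.28, 11.16 and 11.21 in the 22 h mice and changed by 1.07 ± 0.18, adjusted p = 0.00239. Plk2, a stress-responsive polo-like kinase, changed by 0.62 ± 0.13, adjusted p = 0.00743, and Cdkn2d, the inhibitor p19, by 0.51 ± 0.12, adjusted p = 0.0192. The wild-type value for Cdkn1a was -0.13, and the difference between genotypes was 0.76 ± 0.15, adjusted p = 0.0161. Of the genes of the cell cycle itself, 0 of 45 measured were called in either direction, with a median change of -0.039. The call ended with 1 array left out for Cdkn2d (any of 4 arrays, up to 0.0898 without NOS2-/- 22 h mouse 3). Without 1 array, the call of the difference no longer passed for Cdkn1a (0.0507 without wild-type 7 h mouse 3).

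Dio2, the deiodinase that converts the prohormone thyroxine into active triiodothyronine, rose most of all genes. It read 9.75, 10.46 and 9.38 in the 7 h mice and 11.86, 11.58 and 11.77 in the 22 h mice, against 7.46 in wild-type saline lungs, and it changed by 1.88 ± 0.23, adjusted p = 0.000319 (3.67-fold). Its 2 other probe sets gave 0.87 and 2.24, both called. The rise was larger in wild-type mice (3.20, adjusted p = 6.99e-07), with a difference of -1.33 ± 0.33, adjusted p = 0.0425. Dropping a single array took adjusted p of the difference past 0.05 for Dio2 (any of 11 arrays, up to 0.106 without wild-type 7 h mouse 3).

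Immediate-early transcription factors answer mitogens, shear and stress within minutes. Of 25 measured, 7 rose and 0 fell, and the median change was 0.29. Klf4, a Krüppel-like factor of endothelium, epithelium and macrophages, read 9.06, 9.52 and 9.06 in the 7 h mice and 10.33, 10.40 and 10.51 in the 22 h mice and changed by 1.20 ± 0.12, adjusted p = 5.75e-05. Klf2, the flow-responsive factor of quiescent endothelium, read 12.17, 12.03 and 11.74 in the 7 h mice and 12.76, 12.49 and 12.59 in the 22 h mice, a change of 0.63 ± 0.12, adjusted p = 0.00597. Klf10 (0.80 ± 0.19, adjusted p = 0.0186), Ier2 (0.62 ± 0.17, adjusted p = 0.0402), Maff (0.52 ± 0.10, adjusted p = 0.00595), Jund (0.45 ± 0.09, adjusted p = 0.00478) and Cebpb (0.29 ± 0.07, adjusted p = 0.0149) were the other members called. At 7 h Klf4 lay -1.41 from the wild-type saline mean and at 22 h -0.21, whereas Maff rose further above it (1.71 and 2.23). Fos and Egr1 did not pass (0.64 ± 0.34, adjusted p = 0.332 and 0.43 ± 0.28, adjusted p = 0.476), and 22 h mouse 1 was the highest of the 6 mice in both. The change of Maff differed between genotypes (0.87 ± 0.15, adjusted p = 0.00505), and so did that of Cebpb (0.46 ± 0.09, adjusted p = 0.0184). Leaving out 1 array raised adjusted p above 0.05 for Klf10 (any of 4 arrays, up to 0.0857 without NOS2-/- 7 h mouse 2), Ier2 (any of 10 arrays, up to 0.188 without NOS2-/- 7 h mouse 3) and Cebpb (any of 4 arrays, up to 0.0611 without NOS2-/- 22 h mouse 2). Adjusted p of the difference exceeded 0.05 with 1 array left out for Cebpb (any of 3 arrays, up to 0.0586 without wild-type 7 h mouse 3).

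Endothelial genes lay below the wild-type saline level at both times. The median of 28 measured markers lay -1.57 from the wild-type saline mean at 7 h and -1.39 at 22 h, and 4 rose while 2 fell. Ptprb, the endothelial phosphatase VE-PTP that acts on the receptor Tie2, read 9.36, 9.70 and 9.19 in the 7 h mice and 10.59, 10.61 and 10.50 in the 22 h mice, against 12.24 in saline. Emcn, the sialoglycoprotein endomucin, read 8.34, 8.44 and 8.26 in the 7 h mice and 9.32, 9.25 and 9.26 in the 22 h mice. The changes were 1.15 ± 0.16, adjusted p = 0.000552 for Ptprb and 0.93 ± 0.12, adjusted p = 0.000398 for Emcn. Clec14a, a C-type lectin of vessels, changed by 0.99 ± 0.23, adjusted p = 0.0162, with 7 h mouse 3 lowest and 0.38 in its other probe set, which was not called. Egfl7, a secreted vessel protein, changed by 0.58 ± 0.10, adjusted p = 0.00277. The members that fell were Icam2, an adhesion molecule of resting endothelium, at 10.21, 10.25 and 10.19 in the 7 h mice and 9.64, 9.58 and 9.56 in the 22 h mice (-0.63 ± 0.09, adjusted p = 0.000826), and the carbonic anhydrase gene Car4 (-0.38 ± 0.10, adjusted p = 0.0284). The defining markers Pecam1 and Cdh5, which encodes VE-cadherin, were not called (0.21 ± 0.12, adjusted p = 0.392 and 0.10 ± 0.10, adjusted p = 0.685). Tek, which encodes Tie2, stood -3.96 from saline at 7 h and -3.27 at 22 h, a value of 0.69 ± 0.21, adjusted p = 0.0618 that did not pass. In the angiopoietin-Tie2 and VEGF list 1 of 24 rose (Ptprb) and 2 fell, against 4.55% and 3.87% of all genes. Notch4, an endothelial Notch receptor, read 8.62, 8.28 and 8.55 in the 7 h mice and 8.04, 7.84 and 7.87 in the 22 h mice and changed by -0.57 ± 0.12, adjusted p = 0.00999, though its other probe set gave 0.00, and Vegfa changed by -0.43 ± 0.10, adjusted p = 0.0146. Notch4 rose in wild-type mice (0.63, adjusted p = 0.0033), a difference of -1.20 ± 0.17, adjusted p = 0.00192. With 1 array left out, the call was lost for Clec14a (any of 3 arrays, up to 0.0892 without NOS2-/- 7 h mouse 3), Car4 (any of 5 arrays, up to 0.116 without NOS2-/- 22 h mouse 2), Notch4 (0.0509 without NOS2-/- 22 h mouse 2, 0.0502 without NOS2-/- 7 h mouse 3) and Vegfa (any of 4 arrays, up to 0.0635 without NOS2-/- 22 h mouse 2).

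Thbd, the endothelial thrombomodulin that turns thrombin into an anticoagulant enzyme, rose toward the saline level. It read 9.94, 9.45 and 9.71 in the 7 h mice and 10.99, 10.87 and 10.93 in the 22 h mice against 12.80 in wild-type saline lungs, and it changed by 1.23 ± 0.15, adjusted p = 0.00025. Of 26 measured genes of coagulation and fibrinolysis, 3 rose and 3 fell, against 4.55% and 3.87% of all genes. Plat, the tissue plasminogen activator, read 11.85, 11.54 and 11.82 in the 7 h mice and 12.72, 12.67 and 12.72 in the 22 h mice, a change of 0.97 ± 0.13, adjusted p = 0.000551 that took it further above saline (9.48). Plaur, the urokinase receptor, changed by 0.54 ± 0.12, adjusted p = 0.0139. Tfpi2, a Kunitz-type protease inhibitor, read 8.58, 9.37 and 9.12 in the 7 h mice and 8.12, 7.94 and 7.94 in the 22 h mice and changed by -1.02 ± 0.17, adjusted p = 0.00233. Serpinb2 (-0.37 ± 0.11, adjusted p = 0.046) and F7 (-0.33 ± 0.08, adjusted p = 0.0158) fell by less. The call ended with 1 array left out for Plaur (any of 3 arrays, up to 0.0725 without NOS2-/- 7 h mouse 3), Serpinb2 (any of 13 arrays, up to 0.208 without NOS2-/- 7 h mouse 3) and F7 (any of 3 arrays, up to 0.0735 without NOS2-/- 22 h mouse 1).

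**Figure D4:**
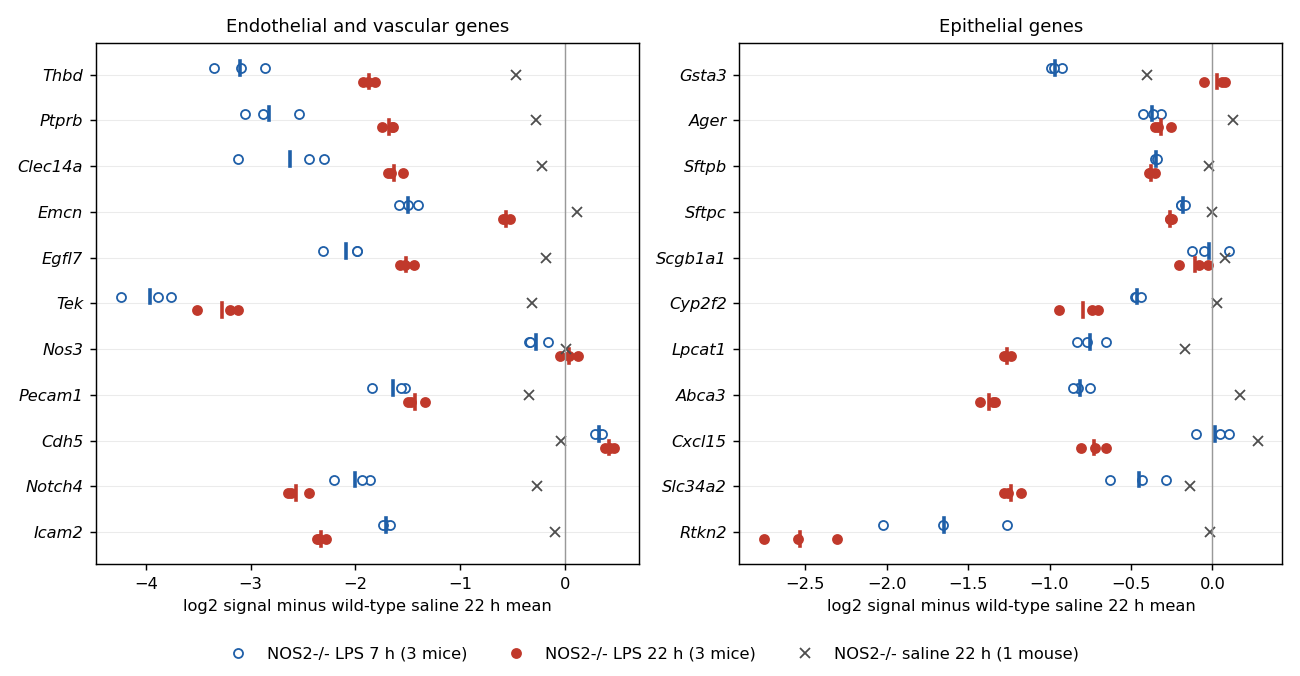
Endothelial and vascular genes (left) and epithelial genes (right) in the 6 NOS2-/- lungs, as log2 signal minus the mean of 4 wild-type saline mice (x axis); points are single mice, short bars are group means and crosses the NOS2-/- saline mouse. Thbd, Ptprb, Clec14a, Emcn and Egfl7 moved toward the saline line while Notch4 and Icam2 moved away from it, and Slc34a2, Cxcl15, Abca3 and Lpcat1 moved away while Sftpc, Sftpb and Ager were not called.

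Of 31 measured genes of BMP and TGF-beta signalling 6 rose and 0 fell, with a median change of 0.117. Smad6, the inhibitory SMAD of the BMP branch, read 10.21, 10.34 and 10.09 in the 7 h mice and 11.09, 11.23 and 11.01 in the 22 h mice, a change of 0.89 ± 0.13, adjusted p = 0.000672. Id2 and the other inhibitors of DNA binding are classical BMP targets. Id2 read 10.66, 10.96 and 10.65 in the 7 h mice and 11.49, 11.58 and 11.55 in the 22 h mice and changed by 0.78 ± 0.11, adjusted p = 0.000674, while Id1 changed by 0.44 ± 0.09, adjusted p = 0.01 and Id3 by 0.55 ± 0.16, adjusted p = 0.0423. The ligand genes Bmp2 (0.45 ± 0.09, adjusted p = 0.00647) and Bmp4 (0.43 ± 0.12, adjusted p = 0.038) rose by less than Smad6. The changes of both ligands were more positive than in wild-type mice, by 0.66 ± 0.13, adjusted p = 0.012 for Bmp2 and 1.06 ± 0.17, adjusted p = 0.00379 for Bmp4. Without 1 array, the call no longer passed for Id1 (0.0576 without NOS2-/- 7 h mouse 3, 0.0525 without NOS2-/- 22 h mouse 1), Id3 (any of 11 arrays, up to 0.214 without NOS2-/- 7 h mouse 3) and Bmp4 (any of 9 arrays, up to 0.196 without NOS2-/- 7 h mouse 3).

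Chaperones refold damaged proteins and the proteasome removes them. Of 23 heat shock and cytosolic chaperone genes 4 rose and 0 fell, although the median change was only 0.021. Dnajb1, an HSP40 cochaperone, read 9.50, 9.68 and 9.56 in the 7 h mice and 10.42, 10.34 and 10.35 in the 22 h mice and changed by 0.79 ± 0.09, adjusted p = 0.000152, while its other probe set gave 0.25 and was not called. Its relative Dnajb4 changed by 0.80 ± 0.18, adjusted p = 0.0133, and Bag3 and Hspb8, partners in the removal of misfolded proteins, by 0.75 ± 0.11, adjusted p = 0.00107 and 0.69 ± 0.11, adjusted p = 0.00173. The difference between genotypes passed for Dnajb1 (0.51 ± 0.12, adjusted p = 0.0382), Dnajb4 (1.03 ± 0.25, adjusted p = 0.0414) and Hspb8 (0.73 ± 0.16, adjusted p = 0.0225). Of 31 constitutive proteasome subunits 4 rose and 0 fell, with a median change of 0.168: Psmd8 (0.53 ± 0.11, adjusted p = 0.00698), Psmd12 (0.38 ± 0.10, adjusted p = 0.0315), Psmb3 (0.36 ± 0.10, adjusted p = 0.0396) and Psma2 (0.36 ± 0.09, adjusted p = 0.0195). Psmb9, an interferon-induced subunit, went the other way. Psmb9 read 11.29, 11.40 and 11.33 in the 7 h mice and 10.60, 10.78 and 10.65 in the 22 h mice, a change of -0.66 ± 0.07, adjusted p = 0.00017, and it was 1 of 2 genes among 14 of MHC class I loading and the immunoproteasome that fell, the other being the tapasin relative Tapbpl (-0.53 ± 0.10, adjusted p = 0.00603). The share of falling genes over all genes was 3.87%. The immunoproteasome subunit genes Psmb8 and Psmb10 of the same list were not called. Among NRF2 targets and antioxidant enzymes 4 of 26 rose and 1 fell, against 4.55% and 3.87% of all genes. The 1 that fell was thus near the share over all genes. Gsta3, a glutathione transferase abundant in club cells, read 9.64, 9.70 and 9.66 in the 7 h mice and 10.58, 10.69 and 10.70 in the 22 h mice and changed by 0.99 ± 0.11, adjusted p = 0.000195, with a difference from wild-type of 1.58 ± 0.16, adjusted p = 0.000165. Gpx2 (0.58), Gsr (0.51) and Taldo1 (0.40) also rose, and Gclc, the catalytic subunit of glutathione synthesis, fell (-0.45 ± 0.09, adjusted p = 0.00766). The change of Gclc was more negative than in wild-type mice (-0.54 ± 0.13, adjusted p = 0.0382). Dropping a single array took adjusted p past 0.05 for Dnajb4 (0.0731 without NOS2-/- 7 h mouse 3, 0.0554 without NOS2-/- 22 h mouse 3), Psmd12 (any of 5 arrays, up to 0.153 without NOS2-/- 7 h mouse 3), Psmb3 (any of 9 arrays, up to 0.198 without NOS2-/- 7 h mouse 3), Psma2 (any of 4 arrays, up to 0.108 without NOS2-/- 7 h mouse 3) and Taldo1 (any of 3 arrays, up to 0.0838 without NOS2-/- 7 h mouse 3). Leaving out 1 array raised adjusted p of the difference above 0.05 for Dnajb1 (any of 8 arrays, up to 0.103 without NOS2-/- 22 h mouse 1), Dnajb4 (any of 12 arrays, up to 0.114 without wild-type 7 h mouse 3), Hspb8 (any of 7 arrays, up to 0.0653 without NOS2-/- 22 h mouse 1) and Gclc (any of 11 arrays, up to 0.104 without NOS2-/- 22 h mouse 3).

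Alveolar type 2 cells make surfactant, and 4 of their 16 measured genes fell while 0 rose. Slc34a2, a phosphate transporter, read 13.55, 13.20 and 13.40 in the 7 h mice and 12.58, 12.56 and 12.66 in the 22 h mice. Cxcl15, the lung chemokine lungkine, read 13.58, 13.43 and 13.63 in the 7 h mice and 12.72, 12.81 and 12.87 in the 22 h mice. Abca3, the lipid transporter of lamellar bodies, read 10.79, 10.72 and 10.69 in the 7 h mice and 10.12, 10.20 and 10.21 in the 22 h mice. The changes were -0.79 ± 0.11, adjusted p = 0.000794 for Slc34a2, -0.74 ± 0.15, adjusted p = 0.00838 for Cxcl15 and -0.56 ± 0.07, adjusted p = 0.000506 for Abca3. The other probe sets of Abca3 gave -0.35 and -0.12 and were not called. Lpcat1, which makes surfactant phosphatidylcholine, changed by -0.51 ± 0.10, adjusted p = 0.00665. The surfactant proteins did not pass, with values of -0.08 ± 0.06, adjusted p = 0.598 for Sftpc and -0.03 ± 0.08, adjusted p = 0.924 for Sftpb. The list's mean signal was 12.36 to 12.49 at 7 h and 12.16 to 12.19 at 22 h. The change of Abca3 was more negative than in wild-type mice (-0.45 ± 0.11, adjusted p = 0.0325), and the value of Sftpb more positive (0.57 ± 0.12, adjusted p = 0.0178). Of 9 alveolar type 1 genes only Rtkn2 was called (-0.89 ± 0.17, adjusted p = 0.00462), and Ager, their defining receptor, did not pass (0.06 ± 0.09), although its value exceeded that in wild-type mice (0.56 ± 0.13, adjusted p = 0.0364). Of 14 club and ciliated cell genes 1 rose (Gsta3) and 3 fell: Cyp2f2 (-0.33 ± 0.08, adjusted p = 0.0225), Tppp3 (-0.42 ± 0.10, adjusted p = 0.021) and Retnla (-0.42 ± 0.10, adjusted p = 0.0196), while Scgb1a1, the club cell secretory protein, did not pass (-0.08 ± 0.08). In wild-type mice Cyp2f2 fell by more (-1.42, a difference of 1.09 ± 0.12, adjusted p = 0.000314), and Retnla rose (0.52, a difference of -0.94 ± 0.15, adjusted p = 0.0029). Adjusted p exceeded 0.05 with 1 array left out for Cyp2f2 (any of 5 arrays, up to 0.122 without NOS2-/- 22 h mouse 1), Tppp3 (any of 4 arrays, up to 0.0962 without NOS2-/- 22 h mouse 1) and Retnla (any of 4 arrays, up to 0.104 without NOS2-/- 22 h mouse 1). With 1 array left out, the call of the difference was lost for Ager (any of 10 arrays, up to 0.0995 without wild-type 7 h mouse 3), Sftpb (0.0501 without NOS2-/- 22 h mouse 2) and Abca3 (any of 8 arrays, up to 0.0998 without wild-type 7 h mouse 3).

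Of 24 measured genes of cholesterol and fatty acid synthesis 3 fell and 0 rose, with a median change of -0.19, and the median distance from wild-type saline went from -0.217 to -0.565. Idi1, the isomerase of isopentenyl diphosphate, read 9.38, 8.83 and 9.09 in the 7 h mice and 8.51, 8.41 and 8.50 in the 22 h mice and changed by -0.63 ± 0.13, adjusted p = 0.00851. Fdps, which makes farnesyl diphosphate, changed by -0.48 ± 0.10, adjusted p = 0.0108, and Nsdhl, a sterol dehydrogenase, by -0.30 ± 0.07, adjusted p = 0.0201. The call ended with 1 array left out for Fdps (0.055 without NOS2-/- 22 h mouse 3) and Nsdhl (any of 4 arrays, up to 0.108 without NOS2-/- 7 h mouse 3).

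Of 11 B cell genes 2 fell and 0 rose, and the mean signal of the list was 8.94 to 9.06 at 7 h and 8.69 to 8.84 at 22 h. Ms4a1, which encodes CD20, read 9.38, 9.29 and 9.63 in the 7 h mice and 8.68, 8.59 and 8.57 in the 22 h mice, a change of -0.82 ± 0.24, adjusted p = 0.0473, and the inhibitory receptor gene Cd22 changed by -0.43 ± 0.11, adjusted p = 0.0206. Pou2af1, a B cell coactivator, read 7.66, 8.02 and 8.22 in the 7 h mice and 6.97, 6.96 and 6.73 in the 22 h mice and changed by -1.08 ± 0.24, adjusted p = 0.0136. The immunoglobulin heavy chain variable segment Ighv14-2 read 8.41, 7.81 and 8.18 in the 7 h mice and 7.06, 6.90 and 7.06 in the 22 h mice, a change of -1.13 ± 0.19, adjusted p = 0.00211, and its probe set may take up related segments. Ms4a4b, a membrane protein of T cells, read 9.13, 9.10 and 9.35 in the 7 h mice and 7.80, 7.81 and 7.85 in the 22 h mice and changed by -1.37 ± 0.19, adjusted p = 0.000601, while its other probe set gave -0.03. Of 23 T and NK cell genes only the interleukin-7 receptor gene Il7r was called (-0.42 ± 0.11, adjusted p = 0.0247), near the 3.87% of all genes that fell. Pou2af1 and Il7r had a change more negative than in wild-type mice (-1.37 ± 0.35, adjusted p = 0.0456 and -0.77 ± 0.15, adjusted p = 0.0158). Without 1 array, the call no longer passed for Ms4a1 (any of 12 arrays, up to 0.19 without NOS2-/- 7 h mouse 3), Cd22 (any of 5 arrays, up to 0.0864 without NOS2-/- 22 h mouse 2), Pou2af1 (0.0744 without NOS2-/- 7 h mouse 3, 0.0637 without NOS2-/- 22 h mouse 3) and Il7r (any of 5 arrays, up to 0.116 without NOS2-/- 22 h mouse 3). Dropping a single array took adjusted p of the difference past 0.05 for Pou2af1 (any of 12 arrays, up to 0.127 without wild-type 7 h mouse 3).

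Of 21 genes of inflammatory caspases and cell death 4 fell and 1 rose, against 3.87% and 4.55% of all genes. Casp4, the cytosolic LPS sensor, read 11.93, 11.98 and 12.13 in the 7 h mice and 11.39, 11.35 and 11.43 in the 22 h mice, a change of -0.62 ± 0.13, adjusted p = 0.00718, and it stayed 2.69 above saline at 22 h. Casp8 (-0.61 ± 0.12, adjusted p = 0.00673), its inhibitor gene Cflar (-0.54 ± 0.10, adjusted p = 0.00313) and its substrate gene Bid (-0.64 ± 0.17, adjusted p = 0.0312) fell with it, and Bcl2l1, which encodes the survival factor BCL-XL, rose (0.38 ± 0.09, adjusted p = 0.0184). No other probe set was called for Cflar (-0.40, -0.29 and 0.21), Bid (-0.35) or Bcl2l1 (0.25, -0.004 and 0.48). Among 21 matrix metalloproteinases, ADAMTS proteases and their inhibitors 5 rose and 1 fell, against 4.55% and 3.87% of all genes. Mmp9 and Mmp8 are neutrophil products described above. Adamts1, a protease that cleaves versican, read 11.03, 11.34 and 10.55 in the 7 h mice and 12.19, 11.86 and 11.81 in the 22 h mice and changed by 0.98 ± 0.18, adjusted p = 0.0034, and Adam8 (0.55) and Adamts8 (0.45) were the other rising members. Mmp13, a collagenase, read 7.06, 7.51 and 7.41 in the 7 h mice and 6.59, 6.31 and 6.31 in the 22 h mice and fell (-0.92 ± 0.19, adjusted p = 0.00763). Its fall was smaller than in wild-type mice, by 1.29 ± 0.27, adjusted p = 0.0192, and Adamts8 had a more positive change as well (1.20 ± 0.13, adjusted p = 0.000369). Leaving out 1 array raised adjusted p above 0.05 for Bid (any of 6 arrays, up to 0.104 without NOS2-/- 7 h mouse 1), Bcl2l1 (any of 4 arrays, up to 0.0916 without NOS2-/- 22 h mouse 3) and Adam8 (any of 12 arrays, up to 0.187 without NOS2-/- 22 h mouse 1). Adjusted p of the difference exceeded 0.05 with 1 array left out for Mmp13 (any of 3 arrays, up to 0.0616 without wild-type 7 h mouse 3).

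**Figure D5:**
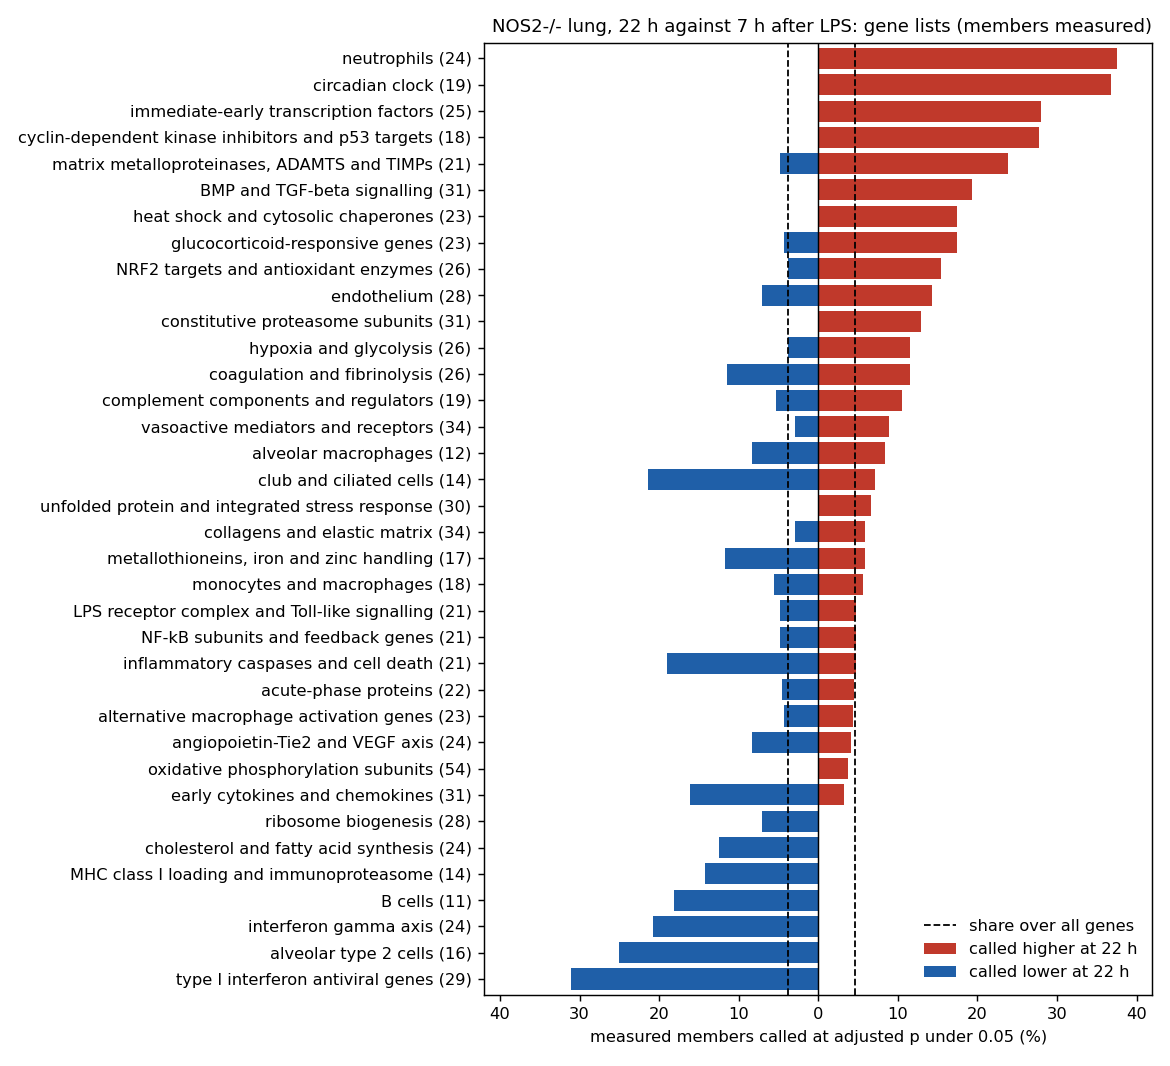
Share of measured members (x axis, %) called higher (red, to the right) and lower (blue, to the left) at 22 h for each list with at least 2 called members; the number of measured members follows each name, and dashed lines mark the shares over all 12393 genes, 4.55% higher and 3.87% lower. Neutrophil and clock genes had the largest shares of rising members (9 of 24 and 7 of 19) and type I interferon genes the largest share of falling ones (9 of 29).

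Several of the largest single changes belonged to none of these groups. Sox4, a developmental transcription factor, read 9.08, 9.27 and 9.07 in the 7 h mice and 10.58, 10.45 and 10.54 in the 22 h mice and changed by 1.39 ± 0.24, adjusted p = 0.00236; 4 of its 5 other probe sets were also called higher, at 0.38 to 0.70. Ptpn22, a phosphatase of lymphocytes and myeloid cells, read 8.16, 8.09 and 7.85 in the 7 h mice and 9.50, 9.21 and 9.39 in the 22 h mice, a change of 1.33 ± 0.22, adjusted p = 0.00193. Spry4, an inhibitor of receptor tyrosine kinase signalling, read 9.11, 9.24 and 8.91 in the 7 h mice and 10.43, 10.59 and 10.19 in the 22 h mice and changed by 1.32 ± 0.10, adjusted p = 1.55e-05. Its change exceeded that in wild-type mice (0.88 ± 0.15, adjusted p = 0.00529). Cxcr4, the receptor for CXCL12 on leukocytes and endothelium, read 8.48, 8.62 and 8.35 in the 7 h mice and 9.70, 9.78 and 9.89 in the 22 h mice, a change of 1.31 ± 0.20, adjusted p = 0.0012. Rgs2, a brake on vasoconstrictor G protein signalling, read 10.12, 10.45 and 9.49 in the 7 h mice and 11.63, 11.31 and 10.99 in the 22 h mice, and Hoxa5, a transcription factor of lung development, read 9.06, 9.70 and 8.81 in the 7 h mice and 10.72, 10.53 and 10.06 in the 22 h mice. In both 7 h mouse 3 was lowest, and the changes were 1.29 ± 0.21, adjusted p = 0.00184 and 1.25 ± 0.19, adjusted p = 0.00114. Hilpda, a lipid droplet protein induced by hypoxia, changed by 1.18 ± 0.13, adjusted p = 0.000113, Tmcc3 by 1.15 ± 0.24, adjusted p = 0.00852 and Fam117b by 1.13 ± 0.14, adjusted p = 0.000398. Sox4, Cxcr4, Klf4 and Hilpda were at 22 h within 0.6 of the wild-type saline mean, having been 1.4 to 2.0 below it at 7 h. None of these calls ended with 1 array left out.

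Among the falls, Galnt2, which starts O-linked glycosylation, read 10.29, 10.15 and 10.16 in the 7 h mice and 9.11, 9.02 and 8.90 in the 22 h mice and changed by -1.19 ± 0.14, adjusted p = 0.000214, with both other probe sets also lower. Neat1, the noncoding RNA that scaffolds nuclear paraspeckles, read 11.90, 11.16 and 11.68 in the 7 h mice and 10.49, 10.44 and 10.54 in the 22 h mice, a change of -1.09 ± 0.16, adjusted p = 0.000867. It lay -2.04 from the wild-type saline mean at 7 h and -3.13 at 22 h. Crk, a signalling adaptor, read 10.66, 10.29 and 10.44 in the 7 h mice and 9.47, 9.37 and 9.40 in the 22 h mice and changed by -1.05 ± 0.13, adjusted p = 0.000308; of its 4 other probe sets 1 was called lower and 3 were not called. In wild-type mice the values were -0.04 for Galnt2, 0.05 for Neat1 and -0.19 for Crk, and the differences between genotypes were -1.14 ± 0.20, adjusted p = 0.00594, -1.14 ± 0.23, adjusted p = 0.0158 and -0.86 ± 0.18, adjusted p = 0.0209. With 1 array left out, the call of the difference was lost for Neat1 (0.0528 without wild-type 7 h mouse 3) and Crk (any of 4 arrays, up to 0.0646 without wild-type 7 h mouse 3).

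Several of the largest differences between genotypes were in genes that were not called in NOS2-/- lungs. Ogn, a small matrix proteoglycan, gave 0.05 ± 0.28 in NOS2-/- and -2.59 in wild-type mice, a difference of 2.64 ± 0.39, adjusted p = 0.00237. Tspan8, a tetraspanin of epithelium, gave 0.37 ± 0.29 and -1.89, a difference of 2.26 ± 0.41, adjusted p = 0.00872. Car3, a carbonic anhydrase, and Adipoq, which encodes adiponectin, are genes of fat. Car3 read 10.002, 9.43 and 10.47 in the 7 h mice and 10.67, 10.24 and 10.51 in the 22 h mice and Adipoq 8.67, 8.14 and 9.10 in the 7 h mice and 9.52, 8.94 and 9.30 in the 22 h mice. Neither was called, and the differences from wild-type were 2.73 ± 0.42, adjusted p = 0.00262 and 2.51 ± 0.38, adjusted p = 0.00262. Of 12 adipose genes 0 were called, and the mean signal of the list was 8.56 to 8.80 at 7 h and 8.73 to 8.99 at 22 h. The part of adipose tissue in these differences was not tested. In the opposite direction, Mat1a, a methionine adenosyltransferase, gave -0.36 ± 0.17 against 1.66 in wild-type (-2.02 ± 0.24, adjusted p = 0.000565), and Pappa, a protease of insulin-like growth factor binding proteins, gave 0.00 ± 0.13 against 1.39 (-1.38 ± 0.18, adjusted p = 0.00129). Kcnj8, which encodes the Kir6.1 subunit of vascular ATP-sensitive potassium channels, read 8.54, 8.51 and 8.45 in the 7 h mice and 8.89, 8.82 and 8.70 in the 22 h mice, a value of 0.31 ± 0.13, adjusted p = 0.192 that did not pass, against 1.67, adjusted p = 1.43e-06 in wild-type, where it rose. The difference was -1.36 ± 0.18, adjusted p = 0.00144. The difference of -1.37 for the B cell coactivator gene Pou2af1, which also fell in NOS2-/- lungs, was of the same size. The Pou2af1 difference lost its call without any of 12 arrays (adjusted p up to 0.127 without wild-type 7 h mouse 3). None of the other differences in this paragraph lost it with 1 array left out.

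Other lists showed few or no calls. None of 39 cytosolic ribosomal protein genes, 18 smooth muscle and pericyte genes, 11 genes of MHC class II presentation, 9 thymocyte genes or 8 mesothelial genes was called. Oxidative phosphorylation had 2 of 54 higher and 0 lower, against 4.55% and 3.87% of all genes. Markers of skeletal muscle and of cardiac muscle, which in mice also sheathes the pulmonary veins, were looked at in every array. None of 22 cardiac and 22 skeletal muscle genes was called. The change of 5 of the 22 cardiac genes was more positive than in wild-type mice and of 0 more negative, against 2.71% and 0.702% of all genes. The cardiac median change was 0.048 in NOS2-/- and -0.531 in wild-type mice. The part of cardiac tissue in the differences between genotypes was not tested. Skeletal actin was uneven among the 22 h mice. Acta1 read 6.77, 6.79 and 6.77 in the 7 h mice and 8.04, 6.82 and 8.53 in the 22 h mice, a change of 1.02 ± 0.33, adjusted p = 0.0781, with mice 1 and 3 high and mouse 2 at the level of the 7 h group. The single NOS2-/- saline mouse read 11.89 for Acta1 and had a mean signal of 9.13 over the skeletal muscle list and of 9.67 over squamous epithelium, against 7.43 to 7.75 and 8.11 to 8.26 in the 6 LPS mice. Its mean over the cardiac list was 10.4, against 9.22 to 9.42 in the LPS mice. Levels beside saline are therefore given against the wild-type saline mice. As the only array of its group, that mouse enters neither the changes from 7 h to 22 h nor the spread they are tested against.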

How the data were processed

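Lung RNA of 17 mice was hybridised to Affymetrix MOE430A arrays, 1 array per mouse. The deposited values are log2 signals per probe set; the submitters' processing notes name affy, and no source used here gives its version, background correction or normalization. Groups came from the labels. The values were used as deposited, without 64 control probe sets. A model with a mean for each genotype, treatment and time was fitted to all 17 arrays with limma 3.58.1 in R 4.3.3 (11 residual degrees of freedom), and the Benjamini-Hochberg adjustment ran over all 22626 probe sets. SE values are those of this fit. The test of the difference between genotypes was the interaction in the same fit. On simulated data the comparison of 22 h with 7 h in NOS2-/- mice called 39 of 50 probe sets changed 1.5-fold and 47 of 50 changed 2-fold, with 6 false calls among 192. The simulated noise was independent and normal with no array set apart, so these rates do not cover an array such as wild-type 22 h mouse 2. No change under 1.5-fold was simulated, while the median called gene changed 1.38-fold, so recovery of such small changes was not tested. Fewer probe sets were changed in the simulation than were called in the data.

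Probe sets were named from the platform's gene annotation: 20380 named 1 gene, 691 several and 1555 none, and those with several or none were left unnamed. The probe set with the highest mean signal stood for a gene. Of 48 called genes named here with further probe sets, all of those were called alike in 22, some in 6 and none in 20, and in 5 at least 1 had the opposite sign. No other probe set was called for Abca3, Bcl2l1, Bid, Cd22, Cflar, Clec14a, Csnk1e, Cx3cl1, Dhx58 or Dnajb1. The same held for Fdps, Gclc, Idi1, Il7r, Ms4a1, Ms4a4b, Notch4, Tapbpl, Trim34a and Vegfa. The opposite sign was seen for Bcl2l1, Cflar, Crk, Cx3cl1 and Notch4. Genes were named by a rule: the 15 largest rises and falls without overlap between groups, the 5 largest differences between genotypes in each direction, and up to 6 members of each list, with defining members added after their values were seen. One gene the rule picks is not reported here. The gene lists, the rule and the comparison itself were chosen with earlier results of these data known. Changes against saline are differences of group means against the 4 wild-type saline lungs and share those arrays. Nothing in the labels pairs mice, and p-values measure the spread between single mice. The number of arrays limits the precision. No value column was left without a sample.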

Additional observations from a re-analysis of the deposited data

Results flagged for a closer look

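The change from 7 h to 22 h differed between NOS2-/- and wild-type mice, by the test of the difference in the fit of all arrays, for 49 of the genes named. The sizes are the change in NOS2-/- minus the change in wild-type mice on the log2 scale. Among interferon genes the change was more positive in NOS2-/- mice for Cxcl10 (2.35), Cxcl11 (1.56), Ifit1 (1.35), Isg20 (1.11), Ido1 (1.02), Rsad2 (0.96) and Tor3a (0.64). Among cytokines, receptors and NF-kB genes the change was more positive in NOS2-/- mice for Cxcl1 (2.02), Trem1 (1.47), Cd40 (1.26), Cxcl2 (1.25) and Rel (0.49). Among vascular, growth factor and matrix genes the change was more positive in NOS2-/- mice for Adm (1.80), Ogn (2.64), Mmp13 (1.29), Adamts8 (1.20), Bmp4 (1.06), Spry4 (0.88) and Bmp2 (0.66). Among clock, stress and chaperone genes the change was more positive in NOS2-/- mice for Dnajb4 (1.03), Maff (0.87), Per1 (0.82), Bhlhe40 (0.81), Cdkn1a (0.76), Hspb8 (0.73), Dnajb1 (0.51) and Cebpb (0.46). Among epithelial and fat genes the change was more positive in NOS2-/- mice for Car3 (2.73), Adipoq (2.51), Tspan8 (2.26), Gsta3 (1.58), Cyp2f2 (1.09), Sftpb (0.57) and Ager (0.56). It was more negative in NOS2-/- mice for Mat1a (-2.02), Pappa (-1.38), Pou2af1 (-1.37), Kcnj8 (-1.36), Dio2 (-1.33), Notch4 (-1.20), Galnt2 (-1.14), Neat1 (-1.14), Nos3 (-0.99), Irf2 (-0.94), Retnla (-0.94), Crk (-0.86), Il7r (-0.77), Gclc (-0.54) and Abca3 (-0.45). All 49 were also called without wild-type 22 h mouse 2, the array that stands apart from its group. Leaving it out narrows the spread shared by all groups and raised the number of calls, so this is a weak check. The call was lost when 1 array was left out for 21 of them, with adjusted p of at most 0.0998 for Abca3, 0.0995 for Ager, 0.111 for Bhlhe40, 0.0507 for Cdkn1a, 0.0586 for Cebpb, 0.0646 for Crk, 0.106 for Dio2, 0.103 for Dnajb1, 0.114 for Dnajb4, 0.104 for Gclc, 0.0653 for Hspb8, 0.0531 for Ido1, 0.07 for Irf2, 0.0616 for Mmp13, 0.0528 for Neat1, 0.076 for Nos3, 0.092 for Per1, 0.127 for Pou2af1, 0.0863 for Rel, 0.0501 for Sftpb and 0.101 for Tor3a, and 28 kept it. Neither genotype has a saline control at 7 h, and NOS2-/- mice have 1 saline lung, so the difference compares the 2 LPS time courses and not the responses from baseline.

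One wild-type saline array lay apart from the other 3 for Nos3, at a log2 signal of 8.86. Its gap to the nearest of the others, relative to the range of the group, passed Dixon's critical value, which chance passes in about 1 of 20 groups. No change from 7 h to 22 h uses that array except through the shared spread. The cause of this value was not tested.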

How the results depend on the processing

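The directions of the 133 named genes called in the report held under every alternative that gave them a value. Most alternatives could not have turned a direction. Other thresholds, the 6 NOS2-/- LPS arrays alone, trended variance and leaving out wild-type or saline arrays keep the same NOS2-/- change. Leaving out 1 NOS2-/- LPS array cannot turn a gene whose times do not overlap. The filter on dim probe sets left out 9 of the 133. The call itself was lost for 12 with the replicate block on 17 arrays, 9 with the mean of all probe sets of a gene, 4 with quantile normalization, 1 with the 6 NOS2-/- LPS arrays alone, 47 at an adjusted p under 0.01 and 99 with a 2-fold minimum. Counts of probe sets moved more. Against 1051 higher and 715 lower with all arrays, fitting the 6 NOS2-/- LPS arrays alone gave 2676 and 1911, array weights (whose estimation stopped before convergence) 3538 and 3283, an adjusted p under 0.01 gave 428 and 298, and a 2-fold minimum 55 and 40. Testing genes in place of probe sets gave 592 higher, and the mean of all probe sets of a gene 648. Against 564 probe sets with a more positive and 123 with a more negative change than in wild-type mice, array weights gave 1244 and 767, an adjusted p under 0.01 gave 145 and 25, and a 2-fold minimum 145 and 19. Quantile normalization gave 287 more negative. The causes were not tested. Array medians, trended variance and a filter on dim probe sets kept these counts within 1.5 times, and the median change of all probe sets lay between -0.035 and -0.00402 under the settings run.

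Leaving out 1 array gave 446 to 2656 higher, 364 to 1837 lower, 206 to 1121 more positive and 37 to 603 more negative. The upper ends came without wild-type 22 h mouse 2, except that of 1121, which came without mouse 3 (1025 without mouse 2). Without 1 of the 6 NOS2-/- LPS arrays the ranges were 446 to 812, 364 to 489, 238 to 424 and 53 to 89, and 51 of 133 called genes named here lost the call at least once. Leaving out each of the 5 other wild-type LPS arrays and each of the 4 wild-type saline arrays was chosen after seeing the data.

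Replicate numbers are shared between groups, but same-numbered 7 h and 22 h mice did not deviate together (correlations of -0.068, 0.067 and -0.049), so the numbers were not taken as pairs. With the replicate block the 17 arrays gave 790 higher, 594 lower, 327 more positive and 62 more negative, and the 6 NOS2-/- LPS arrays alone gave 2615 higher and 1741 lower.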
